A study of Mus musculus with 34 samples.

Results

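The comparison described here set 5 arrays of injured thoracic spinal cord from trkB.T1 knockout (KO) mice, taken 3 days after a moderate contusion, against 4 arrays of KO cord labelled sham. These 9 arrays were chosen by their titles, from 34 in the series, and every expressed gene was examined. All animals of the series were on the C57BL/6J strain, backcrossed for more than 20 generations, and were 8 to 12 weeks old. The arrays used beside them were KO cord at day 1 (4) and day 7 (4) after contusion, and wild-type (WT) cord at day 3 (4) and sham (4). Both KO groups are labelled as lacking the truncated receptor, so the comparison shows the injury response of animals without it, and the genotype enters only where the WT response is set beside it. The control arrays are titled sham, but carry description codes that start with Nav, and the sources do not say whether those mice had surgery. Nor do they say how the allele was made or in which cells the receptor is lost. The titles call the arrays biological replicates, and each group value below is a mean ± SD over its arrays.

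A contusion crushes the cord. It kills neurons and oligodendrocytes at once and opens the blood-spinal cord barrier. Over the following days neutrophils, then monocytes, enter from the blood, resident microglia and astrocytes react and divide, and phagocytes take up myelin and red cells. The receptor for brain-derived neurotrophic factor, TrkB, is the product of Ntrk2. trkB.T1 is its truncated form, which has no kinase domain and is the main form made by astrocytes.

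Values are signals on a log2 scale, computed by the authors with GCRMA, so that a difference of 1 is a 2-fold change. Of 45101 probe sets, 24573 reached 4 on this scale in at least 4 of the 34 arrays and were tested. They stand for 11998 genes, each represented by its brightest probe set. A gene is said to have risen or fallen where limma's adjusted p was under 0.05. The table has a floor at 2.17, and a group mean under 4 is called near the floor.

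The targeted gene was checked first. On Ntrk2 probe set 1420838_at the KO day 3 arrays read 3.12, 4.02, 3.31, 4.94 and 4.09, and the KO sham arrays 4.62, 9.46, 3.31 and 4.91, while WT day 3 and WT sham arrays averaged 10.66 ± 0.15 and 10.39 ± 0.21. On 1435196_at all 5 KO day 3 arrays and 3 KO sham arrays read 2.83, and the remaining KO sham array 8.59. WT day 3 and WT sham arrays averaged 9.08 ± 0.34 and 9.72 ± 0.11 on it. The array labelled KO sham 2 thus kept Ntrk2 signal on both probe sets, below the WT means but far above the other KO day 3 and KO sham arrays. Over all genes it lay nearest to the WT sham mean. KO day 3 replicates 2 and 5 lay nearest to the WT day 3 mean. In turn, each WT day 3 array lay nearest to the KO day 3 mean, and WT sham replicate 2 to the KO sham mean. Only 22 of the 34 arrays lay nearest to their own group mean, so this measure does not settle the genotype of an array. The array labelled KO sham 2 was kept, and every result below includes it unless stated. Other measures set further arrays apart. KO day 3 replicates 1 and 3 were high in the 15 skeletal muscle genes, with list means of 10.67 and 13.13, against 5.01, 4.58 and 4.36 in replicates 2, 4 and 5, and 7.25 to 10.34 in KO sham arrays. Replicates 3 and 4 had the lowest pan-neuronal means of the KO day 3 group, 10.31 and 10.50. Among the WT arrays used beside them, WT day 3 replicate 2 had the lowest array weight of all 34 arrays (0.09). Its correlations within its group were 0.958 to 0.964, while each other WT day 3 array reached 0.993. The signal of the actin control probe sets at the 3′ end exceeded that at the 5′ end by 1.5 ± 0.23 in KO day 3 arrays and by 2.08 ± 0.07 in KO sham arrays, and for Gapdh by 0.28 ± 0.14 in KO day 3 and 0.10 ± 0.03 in KO sham arrays. The part that muscle, RNA quality and the array labelled KO sham 2 have in the results was not tested, apart from the counts without those arrays.

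Injury separated the groups widely. The first principal component of the 9 arrays held 79.7% of their variance, with all KO day 3 arrays between -114.4 and -36.4 and all KO sham arrays between 79.7 and 101.2. Of 11998 genes, 8286 passed the test (69.1%). Of these, 3680 rose (30.7% of all genes) and 4606 fell (38.4%). At least 2-fold changes were found for 1491 genes that rose (12.4%) and 1180 that fell (9.83%). The rises reached further: 704 genes rose at least 4-fold and 173 at least 16-fold, while 58 fell at least 4-fold and 0 at least 16-fold. The median difference over all genes was -0.06. Among probe sets 15928 were called (64.8%), and 13556 in a fit without the array labelled KO sham 2 and without KO day 3 replicates 1 and 3. The KO day 3 and KO sham arrays did not overlap for 27% of genes on the higher side and 33.7% on the lower side. KO day 3 replicates 3 and 4 stood apart from the other day 3 arrays across the response. They were the 2 highest day 3 arrays in 1138 of the 1491 genes at least 2-fold higher (76.3%) and the 2 lowest in 1041 of the 1180 at least 2-fold lower (88.2%), against 25.3% and 26.7% of all genes. Without both, in a fit chosen after seeing the data, 7102 genes were called, 1240 of them at least 2-fold higher and 519 at least 2-fold lower. The 1180 genes then had a median of -0.96, against -1.30 with all arrays, and 1155 of them were still called lower. The 1491 had a median of 1.66, against 1.93, and 1437 were still called higher. With 69.1% of genes called, a list of genes is read below by its direction and the size of its change, beside these shares.

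**Figure D1:**
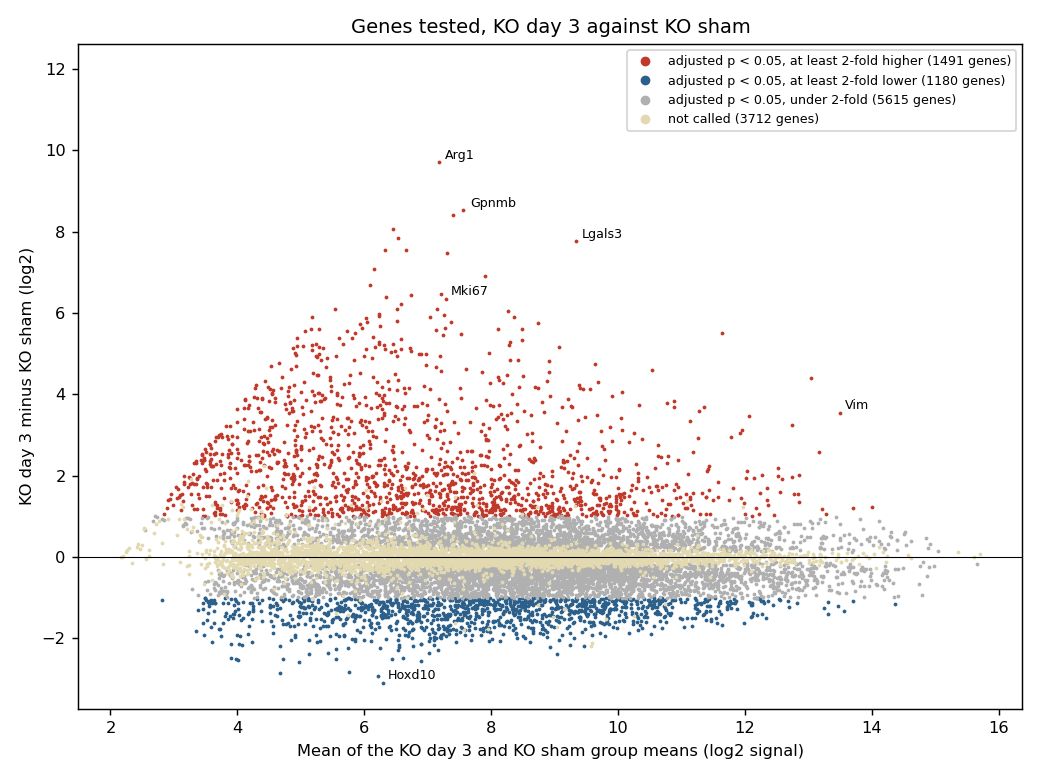
Difference between the KO day 3 and KO sham group means (y axis, log2) against the mean of both group means (x axis, log2) for 11998 genes, each dot 1 gene, with colours for the direction and size of called differences. Rises reach 9.71 (Arg1), while the largest fall is -3.09 (Hoxd10).

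The genes that rose most included several known from phagocytes. Arg1, which encodes arginase 1, an enzyme of alternatively activated macrophages, read 11.94, 11.08, 12.49, 13.21 and 11.45 in KO day 3 arrays and 2.38, 2.38, 2.17 and 2.38 in KO sham arrays. Every day 3 array lay far above every sham array, and the difference was 9.71 (SE 0.42, adjusted p = 1.34e-17). Gpnmb, a glycoprotein of lipid-laden phagocytes, read 11.21, 11.59, 11.97, 12.58 and 11.75 in KO day 3 arrays and 4.17, 2.78, 3.11 and 3.11 in KO sham arrays, a difference of 8.52 (SE 0.48, adjusted p = 5.26e-15). Hmox1, the heme-degrading enzyme heme oxygenase 1, read 11.28, 11.22, 12.07, 12.61 and 10.81 in KO day 3 arrays and 2.88, 2.83, 3.29 and 3.78 in KO sham arrays, a difference of 8.40 (SE 0.33, adjusted p = 1.58e-18). The groups did not overlap for any of these. Timp1, an inhibitor of metalloproteinases, followed with 8.08, then the lectin receptor gene Clec4d with 7.83, the galectin gene Lgals3 with 7.77, the receptor gene for complement fragment C3a, C3ar1, with 7.55, and the scavenger receptor gene Msr1 with 7.54. Ms4a6d (7.48), Ch25h, a cholesterol 25-hydroxylase (7.08), the macrophage endosome protein gene Cd68 (6.92), Sprr1a, a gene of regenerating axons (6.68), Wfdc17 (6.46), the fatty acid receptor gene Cd36 (6.45) and the apolipoprotein gene Apoc2 (6.39) completed the 15 largest rises. In 13 of the 15 the KO sham mean was near the floor. In all 15, KO day 3 replicates 3 and 4 read higher than the other day 3 arrays, as they did in 76.3% of the genes at least 2-fold higher.

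The largest falls were smaller, and several of these genes are known from neurons and glia. Ccser1 read 5.56, 6.12, 2.87, 3.25 and 5.97 in KO day 3 arrays and 7.66, 7.54, 7.67 and 7.84 in KO sham arrays. The sham arrays lay within a narrow band, and day 3 replicates 3 and 4 fell furthest below it. The difference was -2.92 (SE 0.43, adjusted p = 1.13e-06). Hapln1, a link protein of the perineuronal net, read 6.02, 5.96, 5.27, 4.54 and 6.31 in KO day 3 arrays and 8.18, 8.27, 8.17 and 8.05 in KO sham arrays, a difference of -2.55 (SE 0.25, adjusted p = 1e-09). Hes5, a Notch target of neural progenitors and astrocytes, read 2.95, 2.95, 2.17, 2.17 and 3.06 in KO day 3 arrays and 4.91, 5.40, 5.13 and 5.15 in KO sham arrays, a difference of -2.49 (SE 0.19, adjusted p = 2.91e-12). Its day 3 arrays were near the floor. Dao, the D-amino acid oxidase of astrocytes, fell by 2.52 with little spread (SE 0.17). Gjd2, which encodes the neuronal gap junction protein connexin 36, fell by 2.50, the cation channel gene Trpc5 by 2.50 and the angiotensin receptor gene Agtr2 by 2.50. The neurexin ligand gene Nxph2 fell by 2.59, Cpne4 by 2.85, Sptssb by 2.83, Vwc2l by 2.52 and Zmat4 by 2.49. Smim17 (-2.38) and 2900052N01Rik (-2.38) completed them with Hoxd10, the largest of the 15 at -3.09. Hoxd10 read 6.56, 5.55, 2.58, 2.17 and 6.86 in KO day 3 arrays and 6.73, 8.19, 8.33 and 8.10 in KO sham arrays, and it alone of the 15 had overlapping groups (SE 1.02, adjusted p = 0.00913). With array weights the Hoxd10 difference was -1.91 (adjusted p = 0.0798), and without KO day 3 replicates 3 and 4 it was -1.51 (adjusted p = 0.217 by limma). The difference of Ccser1 was -1.79 without them (adjusted p = 1.78e-07 by limma). Of the other falls, Agtr2 was -1.65 and Zmat4 -1.33 without them. Replicates 3 and 4 were the lowest day 3 arrays in 14 of the 15, and 7 of the 15 had a day 3 mean near the floor.

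**Figure D2:**
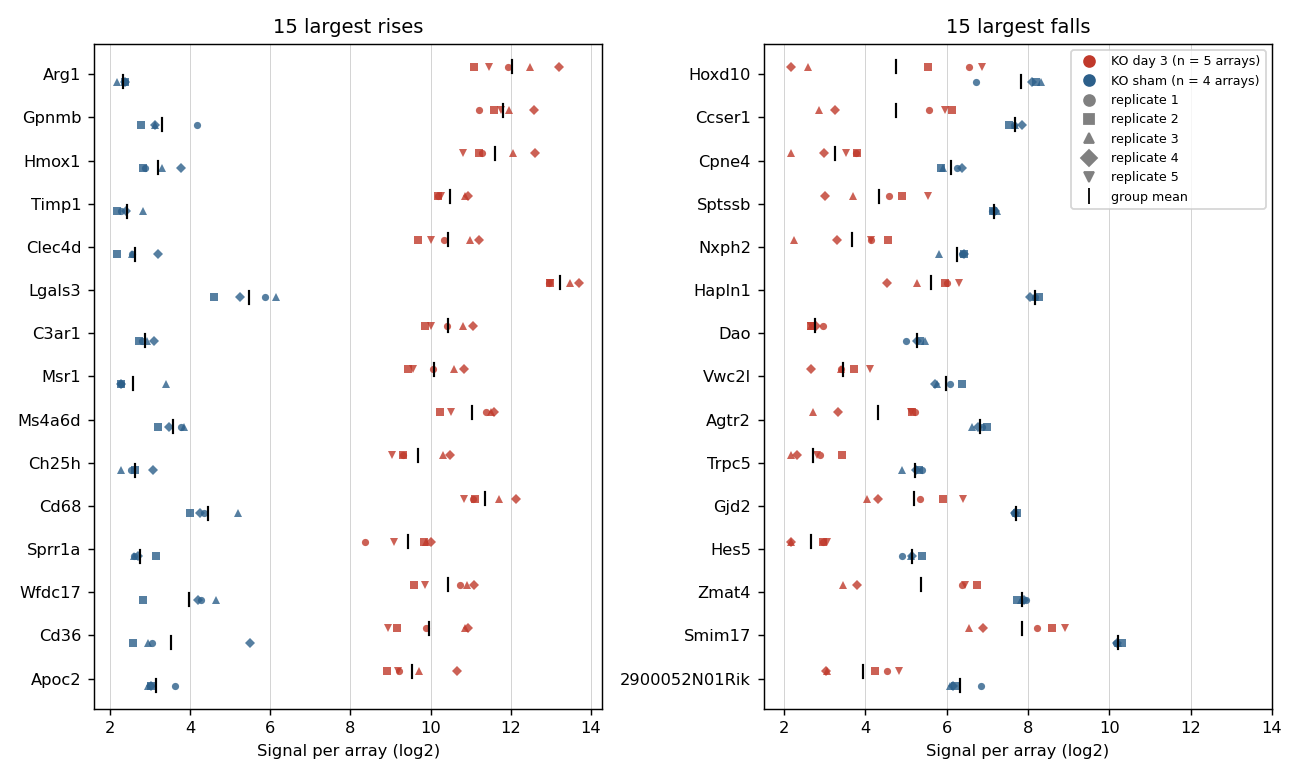
Signal per array (x axis, log2) for the 15 genes that rose most (left) and the 15 that fell most (right), KO day 3 above KO sham in each row, with a mark shape for each replicate and a bar for the group mean. Only Hoxd10 has overlapping groups, and KO day 3 replicates 3 and 4 lie at the outer end of most rows.

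Phagocyte genes rose together. In these bulk samples more cells of a type and more RNA per cell cannot be told apart, and the same holds for fewer cells and less RNA. All 27 measured genes of wound and foam macrophages rose, against 30.7% of all genes, with a median of 4.34; the list mean per array was 10.06 to 11.20 in KO day 3 and 5.54 to 6.18 in KO sham arrays. The smallest changes were in genes that the resting cord makes in quantity, Fabp5 (0.62) and the apolipoprotein gene Apoe (0.74). Of 17 genes of Fc receptors and their signalling, 17 rose, with a median of 3.84. Fcgr2b, the inhibitory IgG receptor, averaged 11.31 ± 0.43 in KO day 3 and 5.41 ± 0.77 in KO sham arrays, Fcgr1 9.27 ± 0.65 (KO day 3) and 4.20 ± 0.22 (KO sham), and the adaptor gene Tyrobp 12.81 ± 0.31 (KO day 3) and 8.97 ± 0.24 (KO sham). Clec7a, the receptor for fungal glucans, rose by 5.58. Among genes of the lysosome 22 of 28 rose and 1 fell. Cathepsin C (Ctsc) averaged 12.01 ± 0.47 in KO day 3 and 7.27 ± 0.40 in KO sham arrays, the β-glucuronidase gene Gusb 10.81 ± 0.37 (KO day 3) and 6.67 ± 0.15 (KO sham), and cathepsin S (Ctss), the brightest of the list, 14.46 ± 0.21 (KO day 3) and 11.88 ± 0.13 (KO sham). Atp6v1h, a subunit of the proton pump, was the member that fell (-0.38, SE 0.07).

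Of 15 measured genes of homeostatic microglia 12 rose and 0 fell, with a median of 1.85. Fcrls averaged 10.78 ± 0.28 in KO day 3 and 6.60 ± 0.14 in KO sham arrays, Olfml3 10.09 ± 0.23 (KO day 3) and 6.55 ± 0.29 (KO sham), Tmem119 7.46 ± 0.23 (KO day 3) and 5.06 ± 0.13 (KO sham), and the colony-stimulating factor receptor gene Csf1r 12.50 ± 0.14 (KO day 3) and 10.65 ± 0.12 (KO sham). Sall1, a transcription factor of resident microglia and of some glia, averaged 9.08 ± 0.24 in KO day 3 and 8.97 ± 0.12 in KO sham arrays, and the lectin gene Siglech 5.97 ± 0.48 (KO day 3) and 6.17 ± 0.25 (KO sham). Neither passed the test.

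Genes of lipid handling moved in opposite directions. Of 13 genes of cholesterol efflux and lipid droplets 9 rose and 2 fell. Plin2, a coat protein of lipid droplets, averaged 11.62 ± 0.65 in KO day 3 and 7.48 ± 0.03 in KO sham arrays, a difference of 4.14 (SE 0.22, adjusted p = 1.47e-15). The members that fell were the sterol hydroxylase gene Cyp27a1 (-0.93) and Lcat (-0.59), which esterifies cholesterol in plasma. Lcat did not pass without KO day 3 replicates 3 and 4 (-0.42, adjusted p = 0.204 by limma). Lcat did not pass in fits without KO day 3 replicate 2, 3 or 4 or KO sham replicate 1 or 4, with -0.47 (adjusted p = 0.129 by limma) without KO sham replicate 1. Of 20 genes of cholesterol synthesis and uptake 19 fell, against 38.4% of all genes, with a median of -1.07, and the sterol isomerase gene Ebp alone rose (0.28). Lanosterol synthase (Lss) averaged 7.97 ± 0.37 in KO day 3 and 9.58 ± 0.19 in KO sham arrays. Insig1, which holds the sterol sensor in the endoplasmic reticulum, read 10.47, 10.45, 10.06, 10.02 and 10.62 in KO day 3 arrays and 11.81, 11.92, 11.83 and 11.78 in KO sham arrays. Its groups did not overlap, and it fell by 1.51 (SE 0.10, adjusted p = 1.59e-13). The early enzyme gene Hmgcs1 averaged 13.17 ± 0.26 in KO day 3 and 14.25 ± 0.09 in KO sham arrays. KO arrays at day 1 and day 7 place these values in time: Insig1 averaged 11.83 ± 0.06 in sham cord, 11.76 ± 0.09 on day 1, 10.32 ± 0.27 on day 3 and 10.40 ± 0.05 on day 7.

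The start region of Hmgcs1 is shown because genes of this pathway share a sterol response element and CCAAT boxes as known regulatory elements. The window holds 250 bases before and 50 after the annotated start, from RefSeq on GRCm38.p6 (chr13:119690101-119690400, plus strand). Capitals mark matches to CCAAT on either strand, 4 in all, and to the sterol element TCACNCCAC, 1 in all.
Hmgcs1: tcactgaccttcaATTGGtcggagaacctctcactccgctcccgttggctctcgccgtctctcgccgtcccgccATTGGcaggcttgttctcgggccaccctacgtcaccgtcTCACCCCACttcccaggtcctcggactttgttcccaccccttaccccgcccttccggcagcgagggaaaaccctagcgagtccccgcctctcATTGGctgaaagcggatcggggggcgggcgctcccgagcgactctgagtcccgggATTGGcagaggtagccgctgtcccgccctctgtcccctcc
A CCAAT match was found in 16 of 16 genes of the list with a window (100%), against 4143 of 9691 tested genes with a window (42.8%) and 37.4% of all 32851 windows. A match to the sterol element was found in 1 of 16, which is Hmgcs1 itself, against 1.35% of tested genes and 1.24% of all windows. In this respect the window shown is not typical of the list.

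Inflammatory signals were high at day 3. Of 12 CC chemokine and receptor genes 11 rose, with a median of 4.84. Ccl2, which attracts monocytes, read 9.72, 8.82, 10.38, 10.31 and 9.21 in KO day 3 arrays and 2.94, 2.91, 4.06 and 3.93 in KO sham arrays, a difference of 6.23 (SE 0.30, adjusted p = 1.55e-16). Ccl3 (5.62), Ccl12 (5.17), Ccl7 (4.95) and Ccl6 (4.83) also rose, all but Ccl6 from a sham mean near the floor. Of 12 CXC and CX3C genes 11 rose, led by the platelet factor gene Pf4 (6.05), the receptor gene Cxcr4 (3.58) and Cxcl16 (3.05). Cx3cl1, the neuronal ligand of the microglial fractalkine receptor, fell, with 7.30 ± 0.65 in KO day 3 and 8.48 ± 0.06 in KO sham arrays. Without KO day 3 replicates 1 and 3, 8 of these 12 rose. Of 25 genes of the interleukin 1, interleukin 6 and TNF families 20 rose and 2 fell. Socs3, the feedback inhibitor induced by gp130 cytokines, averaged 10.91 ± 0.53 in KO day 3 and 5.30 ± 0.47 in KO sham arrays, the inflammasome adaptor gene Pycard 10.31 ± 0.36 (KO day 3) and 5.95 ± 0.22 (KO sham), and the TNF receptor gene Tnfrsf1b 7.22 ± 0.5 (KO day 3) and 3.14 ± 0.29 (KO sham). Il18 (-0.35) and the leukemia inhibitory factor receptor gene Lifr (-0.33) were the 2 that fell.

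Genes of pattern recognition, complement and antigen presentation rose as well. Of 12 toll-like receptor genes and partners 11 rose, among them Tlr13 (5.62), Tlr7 (4.43) and Tlr1 (4.16), each from near the floor, and the lipopolysaccharide co-receptor gene Cd14 (5.11). Of 15 complement genes 10 rose. The receptor and integrin genes changed most, with 6.41 ± 0.65 in KO day 3 and 2.17 ± 0.00 in KO sham arrays for C5ar1, 10.48 ± 0.40 (KO day 3) and 5.46 ± 0.20 (KO sham) for Itgb2, and 8.79 ± 0.26 (KO day 3) and 4.63 ± 0.26 (KO sham) for Itgam. Properdin (Cfp) fell by 0.44 with overlapping groups, and did not pass without KO day 3 replicates 3 and 4 (-0.38, adjusted p = 0.0599 by limma). Of 15 antigen presentation genes 14 rose. The class II gene H2-Aa averaged 9.87 ± 0.59 in KO day 3 and 6.49 ± 1.38 in KO sham arrays, the immunoproteasome gene Psmb8 8.85 ± 0.46 (KO day 3) and 5.55 ± 0.37 (KO sham), and β2-microglobulin (B2m) 13.72 ± 0.21 (KO day 3) and 11.76 ± 0.31 (KO sham). Cd83 fell by 1.38 (SE 0.23, adjusted p = 5.32e-06).

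Of 12 measured neutrophil genes 4 rose, a share near that of all genes (30.7%), namely Lcn2 (3.96), Mmp8 (2.64), Il1r2 (2.19) and Csf3r (1.48). The calgranulin gene S100a8 averaged 12.60 ± 1.18 in KO day 3 and 11.36 ± 0.78 in KO sham arrays (adjusted p = 0.0694). S100a8 passed without KO day 3 replicate 5, at 1.56 (adjusted p = 0.0261 by limma), and without KO sham replicate 3, at 1.49 (adjusted p = 0.0468). The list mean was 9.89 in day 3 replicate 3 and 6.72 to 8.16 in the other day 3 arrays, against 5.66 to 6.82 in KO sham arrays. Only 2 of 20 lymphocyte genes passed the filter. The immunoglobulin heavy chain gene Ighm fell, with 6.95 ± 0.50 in KO day 3 and 9.0 ± 0.14 in KO sham arrays, and the T cell co-receptor gene Cd28 rose by 1.0 from near the floor. Without KO day 3 replicates 3 and 4 Cd28 did not pass (0.51, adjusted p = 0.0768 by limma).

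Of 22 interferon-induced genes 18 rose, with a median of 1.98. Oas1a, a sensor of double-stranded RNA, read 8.48, 6.64, 8.80, 7.47 and 6.56 in KO day 3 arrays and 3.92, 4.28, 4.25 and 4.67 in KO sham arrays. The groups did not overlap, although the day 3 arrays were spread over several units, and the difference was 3.31 (SE 0.46, adjusted p = 3.81e-07). Irf8, a transcription factor of macrophages as well as an interferon target, averaged 8.22 ± 0.39 in KO day 3 and 4.37 ± 0.14 in KO sham arrays, Bst2 9.15 ± 0.70 (KO day 3) and 5.38 ± 0.43 (KO sham), and Ifitm3 11.88 ± 0.51 (KO day 3) and 9.38 ± 0.52 (KO sham). The list mean was highest in day 3 replicate 3 (8.18) and replicate 1 (7.35), the arrays high in muscle genes, against 6.51 to 6.95 in the other day 3 arrays and 4.84 to 5.37 in KO sham arrays. Without both these arrays and the array labelled KO sham 2, 13 of the 22 rose. The start region of Oas1a is shown for its interferon response elements, with capitals for matches on either strand to a pair of GAAA runs with any 2 bases between them, 2 in all, which overlap (chr5:120907476-120907775, minus strand, GRCm38.p6).
Oas1a: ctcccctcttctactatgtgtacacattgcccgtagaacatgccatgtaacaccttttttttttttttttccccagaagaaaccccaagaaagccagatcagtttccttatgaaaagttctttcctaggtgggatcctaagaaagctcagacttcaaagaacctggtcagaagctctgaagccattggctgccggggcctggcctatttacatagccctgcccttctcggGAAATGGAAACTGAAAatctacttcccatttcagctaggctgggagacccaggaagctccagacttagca
Such a match was found in 12 of 20 genes of the list with a window (60%), against 3.65% of tested genes with a window and 3.44% of all windows.

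Genes of cell division rose nearly without exception. Proliferating cells replicate their DNA in S phase under E2F factors. The genes of G2 and mitosis follow, many of them through a cell cycle homology region (CHR) and CCAAT boxes near the start. Of 38 measured genes of G2 and mitosis 37 rose, all of them at least 2-fold, with a median of 4.86. The list mean was 7.70 to 8.52 in KO day 3 and 3.64 to 4.01 in KO sham arrays. In 24 of the 38 the KO sham mean was near the floor. Mki67, the Ki-67 marker of dividing cells, read 10.43, 10.04, 10.92, 10.91 and 10 in KO day 3 arrays and 3.71, 2.72, 5.74 and 4.25 in KO sham arrays, a difference of 6.36 (SE 0.45, adjusted p = 8.5e-13). The day 3 arrays lay within 1 unit of each other, while the sham arrays, between 2.72 and 5.74, were spread more widely. Topoisomerase IIα (Top2a) averaged 9.99 ± 0.29 in KO day 3 and 4.09 ± 0.48 in KO sham arrays, the mitotic kinase gene Pbk 10.23 ± 0.38 (KO day 3) and 4.28 ± 0.46 (KO sham), and Ube2c, the ubiquitin-conjugating enzyme of the anaphase-promoting complex, 9.23 ± 0.37 (KO day 3) and 3.24 ± 0.54 (KO sham). Anln averaged 11.77 ± 0.10 in KO day 3 and 11.93 ± 0.09 in KO sham arrays and did not pass the test (adjusted p = 0.138).

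The windows of 3 of these genes, again 250 bases before to 50 after the start on GRCm38.p6, are shown with capitals for CHR (TTTGAA) and CCAAT matches on either strand. Top2a (chr11:99024140-99024439, minus strand) holds 2 and 6, Ube2c (chr2:164769679-164769978, plus strand) 1 and 6, and Mki67 (chr7:135716330-135716629, minus strand) 2 and 3. In Ube2c a pair of CCAAT matches on opposite strands overlap.
Top2a: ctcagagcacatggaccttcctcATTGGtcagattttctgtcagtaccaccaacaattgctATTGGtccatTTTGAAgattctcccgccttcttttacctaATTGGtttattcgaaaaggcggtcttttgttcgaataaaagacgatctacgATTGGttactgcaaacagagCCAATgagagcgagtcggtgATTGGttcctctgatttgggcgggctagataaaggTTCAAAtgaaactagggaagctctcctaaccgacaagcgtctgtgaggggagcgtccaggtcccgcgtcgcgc
Ube2c: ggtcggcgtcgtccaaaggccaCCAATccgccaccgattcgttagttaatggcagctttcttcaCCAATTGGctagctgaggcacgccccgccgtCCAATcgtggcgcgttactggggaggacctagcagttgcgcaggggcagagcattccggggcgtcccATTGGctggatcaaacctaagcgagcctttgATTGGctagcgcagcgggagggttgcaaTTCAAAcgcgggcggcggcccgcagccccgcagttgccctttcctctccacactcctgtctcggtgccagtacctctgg
Mki67: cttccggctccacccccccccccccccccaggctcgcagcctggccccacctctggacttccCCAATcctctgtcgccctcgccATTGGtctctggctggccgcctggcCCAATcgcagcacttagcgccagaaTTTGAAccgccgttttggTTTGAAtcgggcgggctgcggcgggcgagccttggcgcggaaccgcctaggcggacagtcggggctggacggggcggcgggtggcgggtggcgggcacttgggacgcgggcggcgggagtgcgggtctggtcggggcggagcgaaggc
Both motifs were found in 21 of 33 genes of the list with a window (63.6%), against 5.51% of tested genes with a window and 6.95% of all windows. The CHR alone was found in 72.7% of the list, against 13.9% of tested genes and 17.9% of all windows.

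All 26 measured genes of DNA replication rose, 22 of them at least 2-fold, with a median of 2.29. The ribonucleotide reductase gene Rrm2 read 11.07, 10.66, 11.64, 11.63 and 10.78 in KO day 3 arrays and 5.71, 5.20, 6.43 and 5.99 in KO sham arrays, a difference of 5.32 (SE 0.27, adjusted p = 5.34e-16). The helicase gene Mcm3 averaged 8.54 ± 0.52 in KO day 3 and 4.22 ± 0.68 in KO sham arrays, Uhrf1, which copies methylation onto new DNA, 8.01 ± 0.53 (KO day 3) and 3.54 ± 1.01 (KO sham), and the clamp gene Pcna 12.30 ± 0.24 (KO day 3) and 10.84 ± 0.03 (KO sham). The smallest rises were those of Dut (0.50) and Fen1 (0.64). The Mcm3 window (chr1:20820263-20820562, minus strand, GRCm38.p6) holds 1 match to the E2F motif TTTCCCGC, in capitals.
Mcm3: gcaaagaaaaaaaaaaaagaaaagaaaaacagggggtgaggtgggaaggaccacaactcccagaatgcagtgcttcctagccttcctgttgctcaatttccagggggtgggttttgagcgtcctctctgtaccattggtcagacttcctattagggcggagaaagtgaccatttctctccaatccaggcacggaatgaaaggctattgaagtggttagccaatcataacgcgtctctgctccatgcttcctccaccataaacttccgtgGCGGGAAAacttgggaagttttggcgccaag
This motif was found in 5 of 21 genes of the list with a window (23.8%) and 0 of 33 of the G2 and mitosis list, against 2.24% of tested genes and 1.07% of all windows. The CHR was found in 2 of 21 (9.52%).

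Regulators of the cycle moved on both sides. Of 17 G1/S regulators 15 rose, among them Myc (3.11), Rbl1 (2.98) and cyclin D1 (Ccnd1), which averaged 11.45 ± 0.27 in KO day 3 and 9.48 ± 0.04 in KO sham arrays. Cyclin E1 (Ccne1) fell by 0.24. Of 18 CDK inhibitors and p53 targets 10 rose and 3 fell. The inhibitor genes went apart: Cdkn2c averaged 8.10 ± 0.36 in KO day 3 and 4.47 ± 0.02 in KO sham arrays, and Cdkn1a 9.52 ± 0.43 (KO day 3) and 7.71 ± 0.19 (KO sham), while Cdkn1c, with 7.81 ± 0.18 (KO day 3) and 8.81 ± 0.12 (KO sham), and Cdkn1b, with 9.41 ± 0.15 (KO day 3) and 9.78 ± 0.15 (KO sham), fell.

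**Figure D3:**
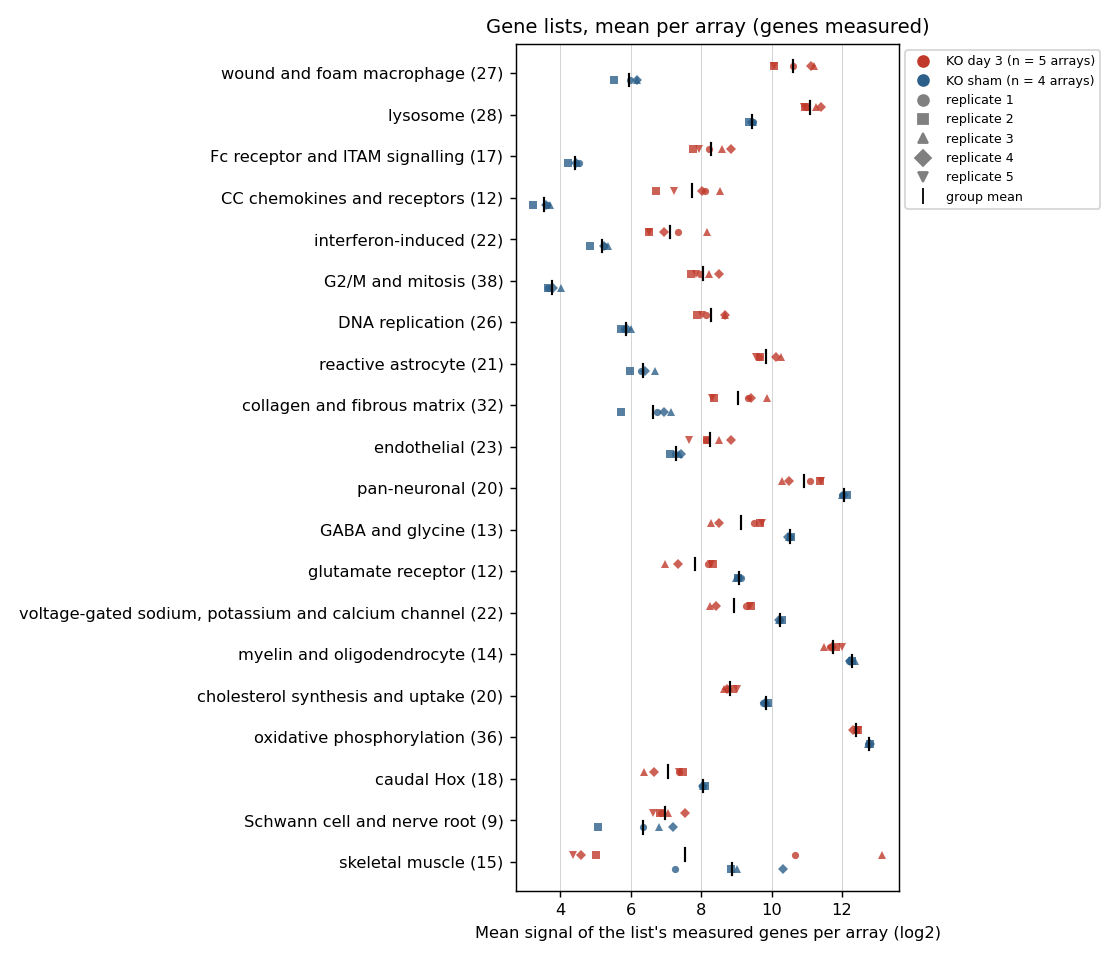
Mean signal of the measured genes of 20 lists per array (x axis, log2; number of genes in brackets), KO day 3 above KO sham in each row, mark shapes for replicates and bars for group means. The groups are apart in the immune, division and neuronal lists, KO day 3 replicates 1 and 3 stand out in skeletal muscle (10.67 and 13.13), and the array labelled KO sham 2 is lowest in the Schwann cell list (5.06).

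Astrocyte genes split by state. All 21 measured genes of reactive astrocytes rose, 20 of them at least 2-fold, with a median of 3.54. Vimentin (Vim), an intermediate filament, averaged 15.26 ± 0.08 in KO day 3 and 11.72 ± 0.55 in KO sham arrays, the protease inhibitor gene Serpina3n 11.65 ± 0.23 (KO day 3) and 6.48 ± 0.13 (KO sham), and the filament gene Gfap 13.35 ± 0.11 (KO day 3) and 11.75 ± 0.16 (KO sham). The transglutaminase gene Tgm1 rose by 6.09 and the pentraxin gene Ptx3 by 4.43, both from near the floor. Several of these genes, Timp1 and Vim among them, are also made by other cells of the lesion. Of 16 genes of homeostatic astrocytes 9 fell and 1 rose, with a median of -0.37, while 38.4% of all genes fell. Without KO day 3 replicates 3 and 4, 6 of the 16 fell, with a median of -0.20, and 7 fell without replicates 1 and 3. The falling side of this split thus rested in part on those arrays. The GABA transporter gene Slc6a11 read 7.90, 8.05, 6.42, 7.20 and 8.22 in KO day 3 arrays and 9.59, 9.80, 9.66 and 9.56 in KO sham arrays. The 2 groups were apart, and it fell by 2.09 (SE 0.24, adjusted p = 1.83e-08). The neurotensin receptor gene Ntsr2 fell by 1.66. Aldh1l1, the folate enzyme used as an astrocyte marker, averaged 9.74 ± 0.29 in KO day 3 and 8.65 ± 0.10 in KO sham arrays and was the member that rose. The water channel gene Aqp4 averaged 14.23 ± 0.28 (KO day 3) and 13.98 ± 0.06 (KO sham), and the potassium channel gene Kcnj10 12.15 ± 0.26 (KO day 3) and 12.38 ± 0.02 (KO sham), neither of which passed the test.

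Matrix genes rose. Of 32 collagen and fibrous matrix genes 31 rose and 0 fell, with a median of 2.15. The list mean was 8.32 to 9.87 in KO day 3 and 5.72 to 7.15 in KO sham arrays, lowest in the array labelled KO sham 2. Thrombospondin 1 (Thbs1) averaged 9.57 ± 0.98 in KO day 3 and 3.46 ± 0.52 in KO sham arrays, and fibronectin (Fn1) 12.19 ± 0.49 (KO day 3) and 8.46 ± 1.17 (KO sham). Periostin (Postn) read 12.24, 7.44, 11.71, 8.55 and 6.83 in KO day 3 arrays and 4.20, 3.09, 5.18 and 4.95 in KO sham arrays, with the highest day 3 values in the 2 arrays high in muscle genes. Its groups did not overlap. The rise of the collagen-binding gene Sparc was small, with 13.81 ± 0.12 in KO day 3 and 13.46 ± 0.10 in KO sham arrays. Among 13 proteoglycan, tenascin and link protein genes 6 rose and 4 fell. Tenascin C (Tnc), induced in scars, rose by 4.59 and versican (Vcan) by 1.71. The 3 largest falls of the list were -2.55 for Hapln1, -1.80 for the link protein gene Hapln4 and -1.43 for brevican (Bcan). Of 23 metalloproteinase and inhibitor genes 16 rose and 4 fell. Adam8, a metalloprotease of leukocytes, averaged 9.20 ± 0.70 in KO day 3 and 3.26 ± 0.29 in KO sham arrays, Mmp19 6.59 ± 0.31 (KO day 3) and 3.04 ± 0.44 (KO sham), while Mmp17 fell by 1.12 and Timp2 by 0.34.

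Of 23 endothelial genes 16 rose and 1 fell, with a median of 0.78. Without KO day 3 replicates 3 and 4, 12 rose, with a median of 0.47. Von Willebrand factor (Vwf) averaged 9.59 ± 0.55 in KO day 3 and 5.92 ± 1.47 in KO sham arrays, the junction gene Cdh5 7.44 ± 0.80 (KO day 3) and 4.74 ± 0.32 (KO sham), and the glucose transporter gene Slc2a1 13.22 ± 0.17 (KO day 3) and 12.42 ± 0.07 (KO sham). The peptide hormone gene Apln fell by 0.92. Of 19 angiogenic genes 10 rose and 3 fell, and 6 rose without KO day 3 replicates 3 and 4, with 10.72 ± 0.29 in KO day 3 and 9.21 ± 0.11 in KO sham arrays for the co-receptor gene Nrp1, and 7.68 ± 0.24 (KO day 3) and 8.54 ± 0.13 (KO sham) for Vegfa, which fell (SE 0.17, adjusted p = 4.65e-05). Hif1a rose by 1.06. Of 10 pericyte and smooth muscle genes 4 rose, led by Tagln (5.29) and Acta2 (2.35), both contractile genes of myofibroblasts too, and 7 rose without KO day 3 replicate 5. Of 9 Schwann cell and nerve root genes 4 rose, led by Fxyd3 (2.35) and Egr2, the regulator of peripheral myelin. Egr2 read 7.56, 7.23, 7.57, 7.92 and 7.28 in KO day 3 arrays and 6.18, 3.78, 6.18 and 6.34 in KO sham arrays, and the lowest sham value was that of the array labelled KO sham 2.

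Neuronal genes fell as a group. All 20 measured pan-neuronal genes fell, 12 of them at least 2-fold, with a median of -1.08. Rbfox3, which encodes the neuronal nuclear antigen NeuN, read 11.06, 11.36, 9.73, 9.97 and 11.32 in KO day 3 arrays and 12.25, 12.34, 12.11 and 12.31 in KO sham arrays. The sham arrays lay close together, day 3 replicates 3 and 4 were lowest, and Rbfox3 fell by 1.56 (SE 0.23, adjusted p = 1.33e-06). The synaptic vesicle genes Syt1 and Sv2b fell by 1.70 and 1.70. The smallest falls were -0.62 for the microtubule gene Map2 and -0.38 for Stmn2, and the neurofilament gene Nefl had -0.66. Without the 2 arrays high in muscle genes 19 of the 20 fell, and Stmn2 did not pass (-0.19, adjusted p = 0.0849 by limma). Without KO day 3 replicates 3 and 4 all 20 fell, with a median of -0.72, and Rbfox3 by 1.01 (adjusted p = 4.77e-06 by limma).

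Genes of channels and transmitter receptors fell as well. All 22 genes of voltage-gated channels fell, 17 of them at least 2-fold, with a median of -1.30. The sodium channel subunit gene Scn4b averaged 8.79 ± 0.75 in KO day 3 and 10.66 ± 0.14 in KO sham arrays, and the fast potassium channel gene Kcnc1 10.18 ± 0.77 (KO day 3) and 11.91 ± 0.07 (KO sham). All 13 GABA and glycine genes fell, with a median of -1.50. Gabrb2, a GABA-A receptor subunit, averaged 8.04 ± 0.78 in KO day 3 and 10.09 ± 0.07 in KO sham arrays, Gabra5 7.53 ± 0.98 (KO day 3) and 9.53 ± 0.05 (KO sham), and the vesicular transporter gene Slc32a1 8.93 ± 0.70 (KO day 3) and 10.56 ± 0.06 (KO sham). All 12 glutamate receptor genes fell, with a median of -1.22, from -1.96 for the NMDA receptor gene Grin2b to -0.49 for the kainate receptor gene Grik2. Differences between these medians were not tested. Without KO day 3 replicates 3 and 4 the medians were -0.83 for the channel genes, -0.94 for the GABA and glycine genes and -0.79 for the glutamate receptor genes.

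Among neuron classes, 5 of 6 motor neuron genes fell, and Mmp9 did not pass the test (0.50, adjusted p = 0.327 by limma). The motor neuron genes Chat, Slc18a3, Slc5a7 and Mnx1 did not pass the filter on low values and were not tested. Chodl, a marker of fast motor neurons, averaged 7.82 ± 0.55 in KO day 3 and 10.04 ± 0.21 in KO sham arrays, and acetylcholinesterase (Ache) 5.53 ± 0.72 (KO day 3) and 7.32 ± 0.22 (KO sham). Of 12 dorsal horn and neuropeptide genes 7 fell and 1 rose, and 4 fell without KO day 3 replicates 3 and 4, when Tac2 did not pass (-1.09, adjusted p = 0.195 by limma). Tac2 (-2.06), Nmu (-2.03) and somatostatin (Sst, -1.80) fell, and Crh, which encodes corticotropin-releasing hormone, rose. Crh read 8.88, 8.78, 7.71, 7.86 and 8.56 in KO day 3 arrays and 6.07, 6.12, 6.25 and 6.16 in KO sham arrays. No day 3 array reached down to the sham values, and the difference was 2.21 (SE 0.27, adjusted p = 6.13e-08).

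Most genes linked to axon regrowth rose. Of 19 regeneration-associated genes 13 rose and 2 fell. Sprr1a read 8.35, 9.83, 9.89, 10.02 and 9.09 in KO day 3 arrays and 2.59, 3.14, 2.59 and 2.70 in KO sham arrays, and Atf3, a transcription factor of injured neurons and glia, 7.14, 7.38, 8.36, 8.40 and 7.43 in KO day 3 arrays and 3.70, 2.57, 2.28 and 3.70 in KO sham arrays. The small heat shock gene Hspb1 averaged 12.66 ± 0.52 in KO day 3 and 8.87 ± 0.12 in KO sham arrays. The tubulin gene Tubb3 (-0.53) and Stmn4 (-0.81) fell. Arg1 is a member of this list and of the macrophage list. Of 29 axon guidance genes 19 fell and 4 rose, among them Epha4 (-1.34) and Slit1 (-1.29) on the falling side and the semaphorin receptor gene Plxnd1 (3.12) on the rising side.

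Of 7 genes of ependymal cilia 3 fell and 0 rose, and 1 fell in the fit without KO day 3 replicates 1 and 3. Of 14 myelin and oligodendrocyte genes 12 fell and 0 rose, with a median of -0.53. Opalin, a gene of mature oligodendrocytes, read 9.93, 9.94, 9.36, 9.48 and 10.04 in KO day 3 arrays and 11, 11.08, 11 and 10.96 in KO sham arrays, and the fall of 1.26 was the largest of the list (SE 0.13, adjusted p = 2.24e-09). Myelin basic protein (Mbp), near the top of the scale, averaged 15.57 ± 0.05 (KO day 3) and 15.74 ± 0.03 (KO sham). Of 13 precursor genes 3 rose and 2 fell. The growth factor receptor gene Pdgfra rose by 0.83, and Cspg4 (the NG2 proteoglycan) by 1.66, while Enpp6, a gene of newly formed oligodendrocytes, fell by 0.90. Olig2 averaged 8.80 ± 0.19 in KO day 3 and 8.88 ± 0.09 in KO sham arrays and did not pass the test. Cspg4 and Pdgfra are also made by pericytes and fibroblasts.

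Of 36 oxidative phosphorylation genes 33 fell and 0 rose, none of them by as much as 2-fold, with a median of -0.39 and a list mean of 12.31 to 12.45 in KO day 3 and 12.73 to 12.80 in KO sham arrays. Ndufs1, a subunit of complex I, fell most, by 0.67 (SE 0.08). Of 19 glycolytic genes 5 rose and 6 fell, shares no larger than those of all genes (30.7% and 38.4%), and 4 fell when the fit held the 9 KO day 3 and KO sham arrays alone. Hexokinase 2 (Hk2) averaged 8.75 ± 0.81 in KO day 3 and 5.66 ± 0.49 in KO sham arrays, hexokinase 3 (Hk3) 7.46 ± 0.58 (KO day 3) and 4.03 ± 1.05 (KO sham), and lactate dehydrogenase A (Ldha) 11.64 ± 0.46 (KO day 3) and 9.87 ± 0.12 (KO sham), while the aldolase gene Aldoc, which astrocytes and some neurons express, fell by 0.79. Of 17 genes of heme and iron 12 rose and 2 fell. The iron transporter gene of phagosomes, Slc11a1, rose by 5.03 from near the floor and the hemoglobin scavenger receptor gene Cd163 by 2.56. The transferrin receptor gene Tfrc fell by 0.65.

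Stress genes rose in part. Of 19 genes of the unfolded protein and amino acid response 12 rose and 2 fell. Sdf2l1 (1.84), Manf (1.45) and the chaperone gene Hspa5 (0.93), all of the endoplasmic reticulum, rose, and asparagine synthetase (Asns) fell by 0.72. Of 20 AP-1 and immediate early genes 14 rose, with 8.67 ± 0.42 in KO day 3 and 6.24 ± 0.34 in KO sham arrays for Fosl2, and Egr3 fell by 1.05. Of 14 heat shock genes 6 rose and 6 fell, and 3 rose without KO day 3 replicates 3 and 4. Of 14 metallothionein and zinc transport genes 7 rose and 3 fell, with 14.30 ± 0.12 in KO day 3 and 13.09 ± 0.07 in KO sham arrays for metallothionein 2 (Mt2) and 10.96 ± 0.17 (KO day 3) and 8.99 ± 0.21 (KO sham) for the zinc importer gene Slc39a1. Of 15 annexin and S100 genes 11 rose. S100a4 averaged 11.62 ± 0.60 in KO day 3 and 5.87 ± 0.75 in KO sham arrays, and S100b, made by astrocytes and oligodendrocytes, fell by 0.63. Of 18 cell death genes 14 rose and 2 fell. The initiator caspase gene Casp8 averaged 7.92 ± 0.40 in KO day 3 and 4.53 ± 0.25 in KO sham arrays, the inflammatory caspase gene Casp1 8.18 ± 0.26 (KO day 3) and 5.40 ± 0.28 (KO sham), and the survival gene Mcl1 12.55 ± 0.38 (KO day 3) and 10.31 ± 0.16 (KO sham). Gsdme, a pore-forming gasdermin, fell by 0.65.

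More growth factor, Hox and clock genes fell than rose, as was also so over all genes (38.4% fell and 30.7% rose). Of 16 neurotrophic factor and receptor genes 8 fell and 4 rose. Their median was -0.45, and -0.16 without KO day 3 replicates 3 and 4. Fgf9 averaged 7.75 ± 0.61 in KO day 3 and 9.5 ± 0.14 in KO sham arrays, neuregulin 1 (Nrg1) 5.41 ± 0.51 (KO day 3) and 6.84 ± 0.20 (KO sham), and the hepatocyte growth factor receptor gene Met, which rose, 7.78 ± 0.43 (KO day 3) and 5.57 ± 0.26 (KO sham). Ntrk2 itself fell on its brightest probe set, 1458622_at, with 9.96 ± 0.62 in KO day 3 and 11.31 ± 0.08 in KO sham arrays (SE 0.20, adjusted p = 1.06e-06); this probe set kept its signal in KO cord, and the array labelled KO sham 2 read 11.38 on it, within the sham range. Of 23 Wnt genes 6 rose and 6 fell, led by the Wnt inhibitor gene Wif1 (3.41) and Sfrp1 (-1.30). Of 18 Hox genes, which record position along the cord and here range from Hoxd1 to Hoxd10, 16 fell, with a median of -0.82. Their list mean was 6.38 and 6.65 in day 3 replicates 3 and 4, 7.37 to 7.48 in the other day 3 arrays, and 8.04 to 8.11 in KO sham arrays. Without those 2 arrays 11 of the 18 fell, with a median of -0.58. Of 14 clock genes 9 fell and 2 rose. The output genes Hlf and Dbp fell by 1.64 and 1.04, and Bhlhe40 rose by 0.63. No source used here gives the hour of tissue collection.

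Day 3 was next placed between its neighbours in time. KO day 3 was compared with KO day 1 and with KO day 7. Both comparisons use the same KO day 3 arrays, and their values are given side by side only. Against day 1, 6358 genes were called (53%), 2741 higher at day 3 (22.8%) and 3617 lower (30.1%), with 913 (7.61%) and 309 (2.58%) of these by at least 2-fold. Against day 7, 4070 genes were called (33.9%), 1879 higher at day 3 (15.7%) and 2191 lower (18.3%), with 360 (3%) and 210 (1.75%) by at least 2-fold. Among probe sets, 11447 were called against day 1 (46.6%) and 7463 against day 7 (30.4%), but for day 7 4888 without KO day 3 replicate 3, 4328 without replicates 1 and 3, and 2626 without replicates 3 and 4.

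Most of the genes that stood furthest above day 1 were those of division. Mki67 averaged 4.10 ± 1.26 in sham cord, 3.75 ± 0.65 on day 1, 10.46 ± 0.45 on day 3 and 8.43 ± 0.18 on day 7. The difference of day 3 from day 1 was 6.71 (SE 0.45, adjusted p = 9.77e-13) and from day 7 2.03 (SE 0.45, adjusted p = 0.00134). Pbk (6.41), Ube2c (6.21), Top2a (5.73), the spindle genes Nusap1 (5.52) and Aspm (5.52), and survivin (Birc5, 5.50) gave like differences from day 1. Gpnmb, at 6.03, was the 1 gene of these 8 not of division. Of the 38 genes of G2 and mitosis, 37 were higher at day 3 than at day 1, with a median of 4.62, and 37 higher than at day 7, with a median of 2.17. For the 26 replication genes these counts were 25 and 26, with medians of 1.41 and 1.27. Rrm2 averaged 5.83 ± 0.52 in sham cord, 6.45 ± 0.56 on day 1, 11.16 ± 0.46 on day 3 and 8.96 ± 0.15 on day 7, and Mcm3 4.22 ± 0.68 in sham cord, 7.17 ± 0.35 on day 1, 8.54 ± 0.52 on day 3 and 7.13 ± 0.17 on day 7.

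Other genes were lower at day 3 than at day 1. Il6 averaged 2.19 ± 0.02 in sham cord, 6.34 ± 1.77 on day 1, 2.89 ± 0.49 on day 3 and 2.17 ± 0.00 on day 7, so that it was near the floor again by day 3. The difference of day 3 from day 1 was -3.45 (SE 0.62, adjusted p = 5.72e-05). Slc10a6 (-4.21), the neutrophil chemokine gene Cxcl3 (-3.95), the acute phase gene Saa1 (-3.59), the sphingosine kinase gene Sphk1 (-3.19), the hyaluronan receptor gene Lyve1 (-3.07), the interferon-induced GTPase gene Gbp2 (-3.01) and the lipid droplet gene Plin4 (-2.77) were the others of the 8 furthest below day 1. Of the 8, Cxcl3, Lyve1 and Gbp2 were called above KO sham at day 3, and Cxcl3 was not without KO day 3 replicate 1 (1.36, adjusted p = 0.0561 by limma) or without replicates 3 and 4 (1.48, adjusted p = 0.0887 by limma). Ccl2 averaged 3.46 ± 0.62 in sham cord, 9.83 ± 0.42 on day 1, 9.69 ± 0.68 on day 3 and 5.93 ± 0.25 on day 7. The difference of Ccl2 from day 1 was -0.14 (SE 0.30) and did not pass the test, and it was 3.76 above day 7 (adjusted p = 4.11e-10). Ccl7 (4.19), Hmox1 (3.59), Arg1 (3.28) and the mitotic genes Hmmr (3.58) and Kif20a (3.24) were the other large differences above day 7. Myh4 (4.94) and Hspb7 (3.21) also reached this set. Myh4 read 12.23, 5.79, 14.42, 4.42 and 4.36 in KO day 3 arrays, highest in the 2 arrays high in muscle genes, and averaged 3.30 ± 0.77 at day 7. Without KO day 3 replicates 1 and 3 the difference from day 7 was 1.56 for Myh4 (adjusted p = 0.518) and 0.90 for Hspb7 (adjusted p = 0.505), and neither passed without any 1 of KO day 3 replicates 1 and 3 or of the 4 day 7 arrays.

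Some genes were lower at day 3 than at day 7. Atp6v0d2, a proton pump subunit of macrophages and osteoclasts, averaged 2.24 ± 0.07 in sham cord, 2.28 ± 0.08 on day 1, 4.08 ± 1.21 on day 3 and 7.70 ± 0.20 on day 7, a difference of day 3 from day 7 of -3.62 (SE 0.34, adjusted p = 6.41e-09). The macrophage elastase gene Mmp12 (-3.73), the lysosomal channel gene Mcoln3 (-2.97) and the apolipoprotein gene Apoc1 (-2.57) were also lower at day 3 than at day 7. So were 9630013A20Rik (-4.60), Rassf10 (-3.28), Kcne1l (-2.93) and Mia (-2.53). 9630013A20Rik averaged 7.36 ± 0.27 in sham cord, 6.43 ± 0.38 on day 1, 5.12 ± 0.70 on day 3 and 9.73 ± 0.03 on day 7, so that it was below sham at day 3 and above it at day 7. Of the 28 lysosome genes, 23 were higher and 1 lower at day 3 than at day 1, while 1 was higher and 11 lower than at day 7. Of the 15 microglial genes, 13 were higher than at day 1 and 0 lower, and 0 were higher and 8 lower than at day 7 (5 lower without KO day 3 replicates 3 and 4). Of the 21 reactive astrocyte genes, 1 was higher and 6 lower than at day 1, the latter a share near that of all genes (30.1%). Against day 7, 13 of them were higher and 1 lower. Of all genes, 22.8% were higher than at day 1, and 15.7% were higher and 18.3% lower than at day 7.

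The pan-neuronal list mean was lowest at day 3 of the 4 KO groups, by a margin that rested on KO day 3 replicates 3 and 4. Of the 20 pan-neuronal genes, 19 were lower at day 3 than at day 1 and 8 lower than at day 7, with 0 higher in either comparison. Rbfox3 averaged 12.25 ± 0.10 in sham cord, 11.88 ± 0.20 on day 1, 10.69 ± 0.78 on day 3 and 11.40 ± 0.08 on day 7. The pan-neuronal mean over arrays was 12.05 ± 0.07 in sham cord, 11.71 ± 0.13 on day 1, 10.94 ± 0.50 on day 3 and 11.34 ± 0.02 on day 7. The SD of day 3 was the largest, with its lowest arrays at 10.31 and 10.50. The other 3 day 3 arrays averaged 11.29, against 11.34 on day 7, and without replicates 3 and 4 the count lower than at day 7 was 0 of 20, and 15 lower than at day 1. Of the 20 cholesterol synthesis genes, 19 were lower at day 3 than at day 1 and 0 higher, and 10 were higher than at day 7 and 0 lower.

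**Figure D4:**
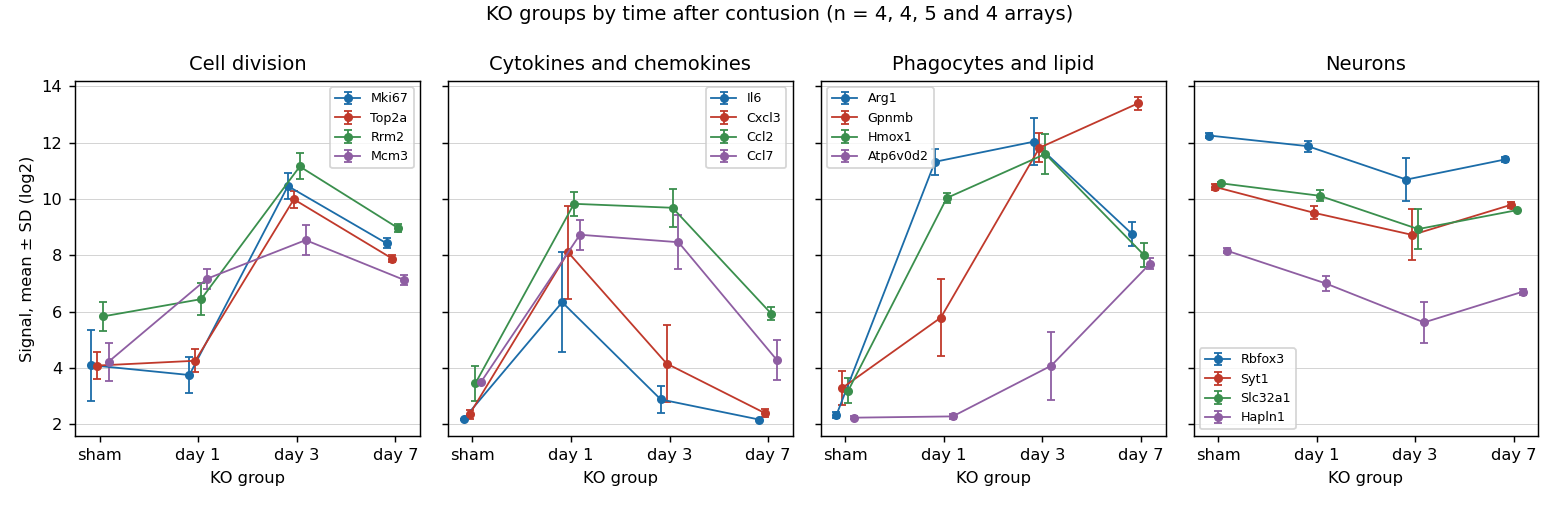
Mean signal ± SD (y axis, log2) of 16 genes in KO sham, day 1, day 3 and day 7 arrays (x axis; n = 4, 4, 5 and 4), in panels for division, cytokines, phagocytes and neurons. Mki67 and Top2a are highest at day 3, Il6 and Cxcl3 at day 1, Gpnmb and Atp6v0d2 at day 7, and the neuronal genes are lowest at day 3.

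The response of KO cord was last set beside that of WT cord, to ask whether the injury changed any gene by a different amount without the truncated receptor. The difference tested was KO day 3 minus KO sham, less WT day 3 minus WT sham. No gene passed (0 of 11998, adjusted p under 0.05 by limma), while 814 genes (6.78%) had an unadjusted p under 0.05. The smallest adjusted p was 0.266. The median half-width of the 95% interval of this difference was 0.35, and for 10298 genes (85.8%) the whole interval lay within 1 log2 unit of 0. The 1491 genes that rose at least 2-fold in KO cord had a median difference of 1.93 in KO and 1.77 in WT cord, and the 1180 that fell -1.30 in KO and -1.13 in WT cord; they were chosen on the KO values, so a smaller WT median is no finding.

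The 5 genes with the smallest p were Hoxa10, Plcg2, Hoxc10, Nkd1 and Hoxd9. Plcg2, a phospholipase of Fc receptor signalling, differed from sham by 3.10 in KO and by 1.94 in WT cord, so that its difference between the genotypes was 1.16 (SE 0.24, adjusted p = 0.266). It averaged 7.68 ± 0.39 in KO day 3 and 4.58 ± 0.19 in KO sham arrays, and 7.08 ± 0.41 in WT day 3 and 5.14 ± 0.15 in WT sham arrays. Nkd1, an inhibitor of Wnt signalling, differed from sham by -1.20 in KO and -0.48 in WT cord. For the Hox genes the sham groups were apart: Hoxa10 averaged 7.93 ± 0.56 in KO day 3 and 8.71 ± 0.17 in KO sham arrays, and 7.78 ± 0.63 in WT day 3 and 6.10 ± 1.02 in WT sham arrays. Over the whole Hox list the means were 7.05 ± 0.50 in KO day 3 and 8.07 ± 0.03 in KO sham arrays, and 7.16 ± 0.29 in WT day 3 and 7.45 ± 0.10 in WT sham arrays. The sham groups were furthest apart in Hoxd10 (7.84 ± 0.74 in KO and 2.32 ± 0.11 in WT sham arrays), Hoxa10, Hoxc10 and Hoxd9. They were close in others, such as Hoxa5 (8.81 ± 0.08 in KO and 8.81 ± 0.07 in WT sham arrays). Of the lists, skeletal muscle had a median genotype difference of -3.18 with 0 of 15 genes called, against a median of -0.01 over all genes; its list mean was 7.55 ± 4.07 in KO day 3 and 8.87 ± 1.27 in KO sham arrays, and 7.27 ± 1.13 in WT day 3 and 5.98 ± 2.81 in WT sham arrays. Other lists lay on the positive side, also with no gene called. Every measured gene of Fc receptors and their signalling had a positive difference, from 0.02 (Fcgr2b, SE 0.35) to 1.37 (Clec7a, SE 0.50). So had every CC chemokine and receptor gene, from 0.17 (Ccl2, SE 0.43) to 1.90 (Ccl8, SE 0.84). Of the toll-like receptor genes and partners only Tlr7 was negative (-0.06). Genes of a list were read on the same arrays, so their directions are not independent. The macrophage list mean was highest in KO day 3 replicates 3 and 4 (11.20 and 11.12) and lowest of the WT day 3 arrays in replicate 2 (9.71). The part of these arrays in the directions was not tested. The Schwann cell list had a median genotype difference of -0.99, with 0 of 9 called. Without the array labelled KO sham 2, which had the lowest Schwann cell mean of its group (5.06, against 5.13 to 5.46 in WT sham arrays and 6.35 to 7.19 in the other KO sham arrays), both called probe sets were of Egr2, with a difference of -2.54 on the brighter (adjusted p = 0.00107). The part that the amount of nerve root in a sample has in this was not tested.

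**Figure D5:**
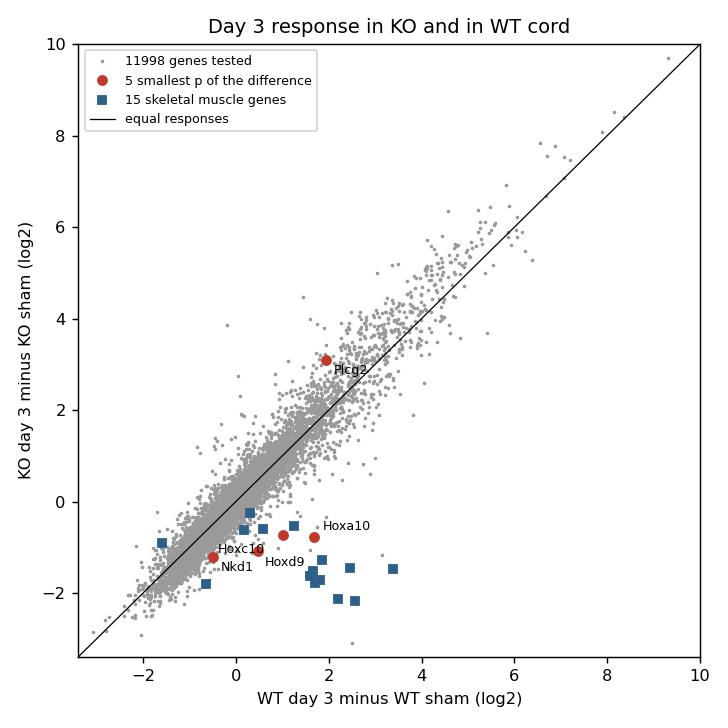
Day 3 minus sham difference in KO cord (y axis, log2) against the same difference in WT cord (x axis, log2) for 11998 genes, each dot 1 gene, with the 5 genes of smallest p for the difference in red, 15 skeletal muscle genes in blue and a line of equal responses. Most genes lie near the line, and no gene passed the test of the difference.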

How the data were processed

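The log2 values were deposited by the authors as a series matrix of 34 Affymetrix arrays, made with GCRMA per the submitters' processing notes, whose version is not stated. GCRMA corrects each probe for background by its sequence and normalizes the arrays together, so that dim probe sets collect at a floor and 33.7% of values lay within 0.1 of the lowest. Groups were taken from the sample titles. For 2 WT day 1 arrays other label fields conflict with the title, which was followed. No pair of arrays held identical values.

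From the 45101 probe sets, 64 array controls and those under log2 4 in all but fewer than 4 arrays were left out, and limma 3.58.1 (R 4.3.3) was fitted to the remaining 24573 with 1 mean for each of 8 groups, moderated variances and Benjamini-Hochberg adjustment over all of them (26 residual degrees of freedom). Every adjusted p is from this model unless stated. Of the tested probe sets 20926 name 1 gene and 3647 name several or none here, by GEO's platform annotation. The code was tested on simulated data. Sharing the spread over groups matters because KO day 3 arrays varied more than sham arrays, and a fit of only the compared arrays was an alternative. The number of arrays limits the precision.

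The genes named were the 15 largest rises and falls, the 8 largest each way against day 1 and day 7 (for the genotype difference, the 5 with the smallest p), and per list the 4 largest and 2 smallest differences, members called against their list, and the member highest at KO day 3. The 53 gene lists and the members were chosen with earlier results of these data known, and some genes belong to several lists. Start-region sequences and motif matches are from RefSeq (GRCm38.p6). Alternatives were other filters, normalizations, variance models, array weights, a replicate block, leaving out each array and, chosen after seeing the data, leaving out the arrays that stood apart. Same-numbered arrays of the 2 groups did not deviate together in all 4 numbers, so they were not treated as pairs.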

Additional observations from a re-analysis of the deposited data

Results flagged for a closer look

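Among 584 sets of 4 or 5 arrays examined for the 233 genes named, the Ntrk2 probe sets and the list means, 36 held 1 array far from the others by Dixon's criterion, and chance flags about 1 in 20 such sets. That rate does not hold where the other values tie, as at the floor, since a very small step is then flagged. The array labelled KO sham 2 was the one in 12 of the 36 flagged sets. Its Ntrk2 signal was 8.59 on 1435196_at, against 2.83 in the other KO sham arrays. On 1420837_at, which lay at the floor in KO cord and was not tested, it read 2.18, against 2.17, which is no retained signal. It was low for Egr2 (3.78, against 6.18 to 6.34), H2-Aa (4.42, against 7.04 to 7.37), Hk3 (2.46, against 4.42 to 4.64), Lyve1 (2.17, against 3.78 to 3.99) and Vwf (3.73, against 6.40 to 6.92). It was high for Kcnc1 (12.00, against 11.86 to 11.88) and Ccl3 (2.37, against 2.34). Its list means were low for antigen presentation (5.78, against 6.34 to 6.42), complement (6.11, against 6.50 to 6.54) and the lysosome (9.35, against 9.46 to 9.48).

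The other KO sham arrays stood apart for single genes. Replicate 1 did for 2900052N01Rik (6.85), Apoc2 (3.61), Hoxd10 (6.73, against 8.10 to 8.33), Mcoln3 (2.30), Siglech (6.54) and Vcan (8.35). Replicate 3 did for Arg1 (2.17), Ccnd1 (9.54), Cdkn2c (4.49), Fabp5 (14.04), Mmp8 (3.15), Msr1 (3.39), Nxph2 (5.82) and Slc11a1 (4.14). Replicate 4 did for Cd36 (5.48, against 2.56 to 3.05), Mmp19 (2.39), Tlr7 (2.74) and the metallothionein and zinc list mean (9.72).

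Among KO day 3 arrays, replicate 3 stood apart for Mmp17 (4.08, against 5.08 to 5.34), Slc10a6 (3.00, against 2.17 to 2.19) and Vim (15.40, against 15.21 to 15.24). Replicate 4 did for Cdkn1b (9.14) and Tfrc (10.72, against 11.21 to 11.38), and replicate 5 for Ntrk2 probe set 1444121_at (2.22, against 2.17). The response to injury also differed between time points by a direct test, with 11447 probe sets called between KO day 3 and KO day 1 and 7463 between KO day 3 and KO day 7.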

How the results depend on the processing

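Against KO sham, 15928 probe sets were called, and 13316 to 16620 under the alternatives run, with 14352 under a replicate block and 8320 in place of 8286 genes when all probe sets of a gene were averaged. The genotype difference had 0 calls, but 6 with no filter on low values, 0 to 2 when 1 array was left out (2 without KO sham replicate 2, 1 without WT sham replicate 4), and 1 without KO sham replicate 2 and the 2 KO day 3 arrays high in muscle genes, an alternative chosen after seeing the data. Against day 1, 11447 probe sets were called, 4679 with the replicate block, which drops the fifth day 3 array and fits only the arrays compared, 8116 without KO day 3 replicates 3 and 4, and 9933 to 11855 when 1 array was left out. Against day 7, 7463 were called, 3453 with only the arrays compared, 2117 with the replicate block, 4328 without the 2 arrays high in muscle genes, 2626 without KO day 3 replicates 3 and 4, and 4888 to 9040 when 1 array was left out, the lowest without KO day 3 replicate 3. The share of calls that were higher at day 3 was 41.7% against day 1 and 46.8% against day 7, and 54.9% and 59.9% with the block. The causes of these shifts were not tested. Same-numbered arrays of KO day 3 and KO sham had correlations of deviations of -0.197, 0.334, 0.209 and -0.139, and 1 of 4 correlated best with its own number.

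Against KO sham, Hspb7 (2.23) was -0.072 without the 2 arrays high in muscle genes and -0.44 without KO sham replicate 2 as well. Olig2 (-0.07) was 0.018 in both fits. Without KO day 3 replicates 3 and 4, Siglech (-0.20) was 0.092. Glycolytic genes called lower were 6, and 3 with the replicate block. Without the 2 arrays high in muscle genes Stmn2 was no longer called (-0.19, adjusted p = 0.0849 by limma), and neither were Tac2 (-1.80, 0.0586) and Cfp (-0.39, 0.0603) without KO sham replicate 2 as well. Signals at the floor hold no order of level, and 431 genes that rose at least 2-fold had a KO sham mean near it.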
